A study of Mus musculus with 6 samples.

Results

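The ALDH1 genes examined here are Aldh1a1, Aldh1a2, Aldh1a3, Aldh1a7, Aldh1l1 and Aldh1l2. They were taken by symbol from a table comparing 2 mouse ovarian cancer cell lines, and all 6 were among its 7320 genes. ID8 is a line of transformed ovarian epithelium from the C57Bl6 strain, grown from 1 clone that became immortal in culture. KMF, which the labels also call ID8-IP, was recovered from the peritoneal ascites of mice bearing ID8 tumors and carries DNA gains that include Myc and the gene of focal adhesion kinase (FAK). Both lines were untreated and were kept for 5 days in serum-free PromoCell XF medium, where they form floating clusters called tumorspheres. Poly-A RNA of 3 samples per line was sequenced, from passages 23, 24 and 35 for ID8 replicates 1 to 3 and from passages 14, 17 and 22 for KMF replicates 1 to 3. The passages of the lines do not overlap, so line and passage cannot be told apart. KMF is a single derivative of ID8, and the samples of a line are independent RNA preparations of that 1 line, so the p-values measure the spread between these samples.

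Retinal, made from vitamin A (retinol), is oxidized to retinoic acid by the retinaldehyde dehydrogenases, which in mice are the products of Aldh1a1, Aldh1a2 and Aldh1a3. Retinoic acid binds nuclear receptors that switch on target genes, and in the embryo and the adult it directs differentiation of many epithelia. Aldh1a7 is a rodent paralog of Aldh1a1 whose product has little activity on retinal. Aldh1l1 and Aldh1l2 encode the cytosolic and the mitochondrial enzyme that oxidize a formyl group on tetrahydrofolate to carbon dioxide, which withdraws one-carbon units from nucleotide synthesis. High ALDH activity, read with the fluorescent ALDEFLUOR substrate, is widely used as a mark of stem-like tumor cells. The study assayed that activity in these lines and reported a larger share of cells with high activity in KMF than in ID8 tumorspheres. The comparison here asks which ALDH1 transcripts differ between the lines. RNA levels measure neither ALDH activity nor protein, and their relation to the assay was not tested.

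The libraries held between 23108407 and 33212313 fragments on genes, and 52.8% to 55.9% of these fell on the listed genes. The table lists only genes that the authors had already called different, so a call made again from it is no independent evidence. Levels are given as FPKM, the fragments of a gene scaled to its length and to the fragments on genes in the library. Differences are log2 fold changes of KMF over ID8 with standard errors from edgeR, and a gene is termed called at a Benjamini-Hochberg adjusted p-value under 0.05. Of the 6967 listed genes fitted, 92.9% were called, with 45.4% higher and 47.5% lower in KMF. Of the ALDH1 genes 5 of 6 were called, 1 higher and 4 lower in KMF, and the median log2 fold change over the 6 was -2.17 against -0.23 over all genes fitted. The 5 that were called also differed by at least 2-fold, as 40.5% of all genes fitted did, and their FPKM did not overlap between the lines, which held for 96.6% of all genes fitted. All 6 passed the filter on low counts, but Aldh1a2, Aldh1a3 and Aldh1l1 passed it through their ID8 counts.

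Aldh1a1 was the most abundant ALDH1 transcript in every library. It lies on chromosome 19 from 20601961 to 20643462 on the plus strand (GRCm38, as for all positions here) and is identified as ENSMUSG00000053279. Its level was 277, 349 and 462 FPKM in ID8 replicates 1, 2 and 3 and 74.2, 124 and 79.02 FPKM in KMF replicates 1, 2 and 3. Every ID8 library lay above every KMF library, and within a line the highest level was found in ID8 replicate 3 and in KMF replicate 2. Aldh1a1 RNA was 3.80-fold lower in KMF (log2 fold change -1.93 ± 0.25, SE, adjusted p = 0.000645). The counts behind it were high in both lines, between 16752 and 24320 per ID8 library and between 3591 and 5904 per KMF library.

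**Figure D1:**
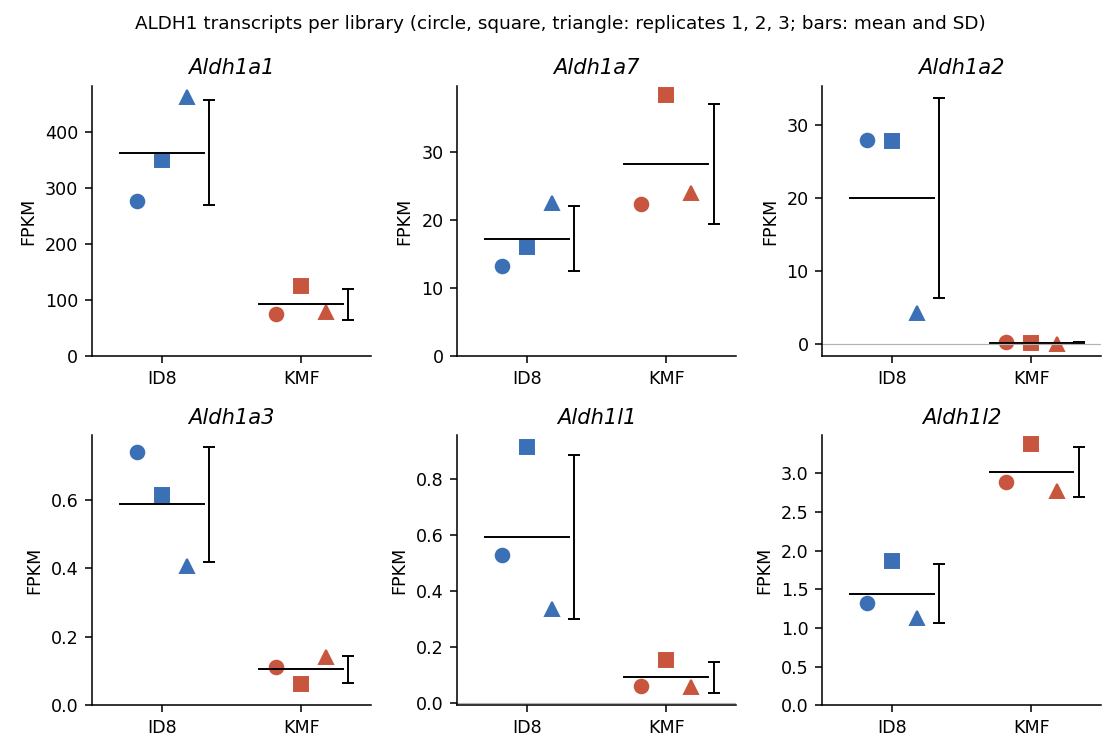
FPKM (vertical axis) of the 6 ALDH1 genes in each ID8 (blue) and KMF (red) library, with each replicate as a point, the mean as a line and the SD (n = 3) as a bar. The vertical scale differs between panels. The lines overlap in the Aldh1a7 panel alone, and Aldh1a2 in ID8 replicate 3 lies apart from the other ID8 libraries.

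Aldh1a7 (ENSMUSG00000024747) lies beside Aldh1a1 on the opposite strand, from 20692953 to 20727562 on the minus strand of chromosome 19, with 49490 bases between the deposited ends of the genes. The paralogs are alike both in their coding sequence and just upstream of their start sites, and the stretches below are printed for that reason. Their coding sequences, each of 1503 bases in 13 exons, are 91.62% identical (1377 bases). The longest run that both coding sequences hold, from base 757 to base 856 of each, follows.
Shared coding run: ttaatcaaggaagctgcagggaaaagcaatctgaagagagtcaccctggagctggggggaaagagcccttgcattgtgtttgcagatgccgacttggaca
Of the 50-base words of the Aldh1a1 transcript 151 of 2004, or 7.54%, also occur in the Aldh1a7 transcript, whereas 0 of its 1904 words of 150 bases do. No 50-base word was shared between any other pair of the 6 genes. The reads were 150 bases long and paired, and how fragments matching both paralogs were counted is not given in the sources used here.

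Upstream of their start sites, the 250 bases of Aldh1a1 and Aldh1a7 aligned over 232 bases with 72.41% identity and shared a run of 65 bases that begins at position -94 of both. The last 120 bases before each RefSeq start (GRCm38.p6) are given with those of Aldh1a2. Aldh1a1 has 2 RefSeq windows, and the one whose start lies nearest to its deposited 5' end was used. Capitals mark the octamer ATGCAAAT, the letters that POU factors such as Oct4 are known to bind, and the box CCAAT.
Aldh1a1 (chr19:20601848-20601967, plus strand): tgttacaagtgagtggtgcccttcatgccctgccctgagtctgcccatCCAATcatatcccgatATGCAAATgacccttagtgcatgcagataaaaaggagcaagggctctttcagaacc
Aldh1a7 (chr19:20727557-20727676, minus strand): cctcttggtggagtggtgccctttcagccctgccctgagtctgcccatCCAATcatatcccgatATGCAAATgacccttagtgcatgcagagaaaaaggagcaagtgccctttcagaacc
Aldh1a2 (chr9:71215669-71215788, plus strand): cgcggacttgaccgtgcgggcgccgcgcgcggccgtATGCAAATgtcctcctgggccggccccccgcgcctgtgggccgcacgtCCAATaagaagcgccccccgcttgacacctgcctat
The octamer begins at position -56 in Aldh1a1 and Aldh1a7 and at -84 in Aldh1a2. It was searched on both strands of all 32851 RefSeq windows, from 250 bases before to 50 bases after a start, and 1.735% of them hold it. The box CCAAT occurs in 37.41% of the windows. The window of Aldh1l1 holds no octamer, and windows were found for 4 of the 6 genes, the exceptions being Aldh1a3 and Aldh1l2. These letters were picked after the sequences had been seen, and a match is a description of the window alone.

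Despite this likeness, the lower level of Aldh1a1 in KMF was not seen for Aldh1a7. Aldh1a7 was measured at 13.3, 16.04 and 22.5 FPKM in ID8 replicates 1, 2 and 3 and at 22.4, 38.5 and 23.9 FPKM in KMF replicates 1, 2 and 3. The lowest KMF library lay just under the highest ID8 library. The log2 fold change was 0.75 ± 0.25 (SE) with an adjusted p of 0.0502, so Aldh1a7 was not called. That result sits at the threshold. It was called in 6 of 15 alternative settings, among them the fits without ID8 replicate 3 (log2 fold change 0.98, adjusted p = 0.02) and without KMF replicate 1 (0.90, adjusted p = 0.0388), and the adjusted p over all 15 ranged from 0.02 to 0.168.

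The ratio of the paralogs was alike in the libraries of a line and differed between the lines. Aldh1a7 FPKM divided by Aldh1a1 FPKM was 0.0479, 0.046 and 0.0488 in ID8 replicates 1, 2 and 3. In KMF replicates 1, 2 and 3 the same ratio was 0.302, 0.309 and 0.303. The mean ratio was 6.40-fold higher in KMF, and its coefficient of variation was 3.02% in ID8 and 1.25% in KMF. Fragment counting alone gives an error of 2.67% to 3.62% on the ratio of a single library. By contrast, the coefficient of variation of Aldh1a1 FPKM was 25.7% in ID8 and 30.0% in KMF. For Aldh1a7 FPKM it was 27.5% and 31.4%. The 3 libraries of a line are few, and no test was made of the ratio.

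**Figure D2:**
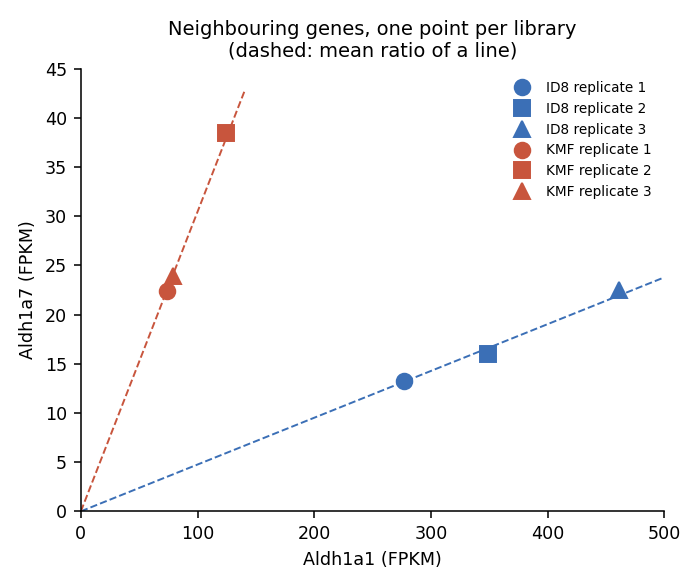
Aldh1a7 FPKM (vertical axis) against Aldh1a1 FPKM (horizontal axis), 1 point per library, with ID8 in blue and KMF in red and a dashed line through 0 at the mean ratio of each line. The libraries of each line fall along their own line, at mean ratios of 0.0476 in ID8 and 0.305 in KMF.

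Aldh1a2, the retinaldehyde dehydrogenase of the embryonic mesoderm and of mesothelium, showed the largest difference among the 6 genes. It is ENSMUSG00000013584 on chromosome 9, from 71215789 to 71296243 on the plus strand. The processed pseudogene Gm48124 overlaps it on the opposite strand, and it is not given whether counting used strand. ID8 replicates 1, 2 and 3 held 28.01, 27.8 and 4.22 FPKM, from 1870, 1520 and 245 counts. KMF replicates 1, 2 and 3 held 0.281, 0.21 and 0.0532 FPKM, from 15, 11 and 4 counts. Although ID8 replicate 3, the library of passage 35, stood apart from the other ID8 libraries, whose mean was 6.62-fold higher, it was still 15.01 times the highest KMF library. The log2 fold change was -6.84 ± 0.92 (SE, adjusted p = 0.0008), a 114-fold lower level in KMF. It ranged from -7.32 to -6.27 when single libraries were left out. On the log2(FPKM + 1) scale, which compresses low levels, it was -3.79.

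Of 12 ovarian surface and mesothelial markers that were fitted 9 were also called lower in KMF, beside 47.5% of all genes fitted, and 10 of the 13 in the table were lowest among the ID8 libraries in replicate 3, as Aldh1a2 was. Over all 7320 listed genes, 37.9% were lowest there. Upk3b, a uroplakin of mesothelial cells, was measured at 25.2, 41.8 and 8.97 FPKM in ID8 replicates 1, 2 and 3 and at 1.14 to 2.25 FPKM in KMF. Lrrn4 was at 1.96, 2.45 and 0.734 FPKM in the ID8 libraries, Bnc1 at 3.54, 4.32 and 1.93 and the keratin Krt7 at 1.88, 2.02 and 0.809. Their log2 fold changes were -3.88 ± 0.57 for Upk3b, -4.08 ± 0.55 for Lrrn4, -4.07 ± 0.46 for Bnc1 and -2.55 ± 0.39 for Krt7 (SE), and all were called. The list names 18 markers, and of the 12 fitted ones 2 were higher and 1 was not called, with a median log2 fold change of -1.01. The markers that rose were Msln (1.45 ± 0.13, SE) and Podxl (1.04 ± 0.16, SE). The summed level of the 13 markers in the table was 423 to 525 FPKM in ID8 and 389 to 420.3 FPKM in KMF. Wt1, a marker of ovarian surface epithelium, was present in both lines, at 94.8 to 118 FPKM in ID8 and 63.6 to 89.95 FPKM in KMF. Krt8, Krt18 and Krt19 were not analysed here.

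Markers of other cell types were few in the table. From the fibroblast list 3 of 8 genes were listed and all were called lower, where 47.5% of all genes fitted were and every listed gene had been preselected as different. These were Col1a1 with a log2 fold change of -2.67 ± 0.47, Dcn with -2.18 ± 0.31 and Pdgfra with -1.15 ± 0.28 (SE). Col1a1 was likewise lowest among the ID8 libraries in replicate 3, at 1.56 FPKM against 4.34 and 5.87, whereas Pdgfra was lowest in replicate 2. The summed level of the fibroblast list was 66.1 to 96.6 FPKM in ID8 and 13.0 to 24.2 FPKM in KMF. From the endothelial list 2 of 8 genes were listed. Esam, an adhesion molecule of endothelium, was at 30.3 to 51.9 FPKM in ID8 and 20.2 to 27.3 FPKM in KMF. Its log2 fold change of -0.85 ± 0.22 (SE) was called, though not without ID8 replicate 1 or KMF replicate 3 (highest adjusted p = 0.059). Kdr was too low to be fitted, with 2 to 10 counts in the ID8 libraries and 0 in those of KMF. Of the leukocyte list Cd74 was listed, at 0.857 to 1.59 FPKM in ID8 and 0.215 to 0.391 FPKM in KMF. In bulk RNA, fewer cells of a type and less RNA per cell cannot be told apart. The part of these marker levels in the Aldh1a2 difference was not tested.

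Aldh1a3, the other retinaldehyde dehydrogenase, was a low transcript in both lines. It is ENSMUSG00000015134 on the minus strand of chromosome 7, from 66390892 to 66427517. Levels were 0.739, 0.614 and 0.408 FPKM in ID8 replicates 1, 2 and 3 and 0.111, 0.0629 and 0.14 FPKM in KMF replicates 1, 2 and 3, so that the lines did not overlap. No KMF library held more than 16 counts of it, and no ID8 library more than 75. The log2 fold change was -2.41 ± 0.40 (SE, adjusted p = 0.0022), or 5.31-fold lower in KMF. As for Aldh1a2, the lowest of the ID8 levels was in replicate 3.

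The genes of folate oxidation changed in opposite directions. Aldh1l1, the cytosolic enzyme, is ENSMUSG00000030088 on chromosome 6, from 90486427 to 90600203 on the plus strand. Its level was 0.528, 0.913 and 0.336 FPKM in ID8 replicates 1, 2 and 3 and 0.0609, 0.155 and 0.0577 FPKM in KMF replicates 1, 2 and 3. The lines did not overlap, but counts were small, from 36 to 92 in ID8 and from 6 to 15 in KMF. The log2 fold change was -2.68 ± 0.54 (SE, adjusted p = 0.00578), or 6.41-fold lower. GENCODE M21 places the genes Gm45901 and Gm44236 on the same strand and Gm15756 on the opposite strand within its bounds. Since it is not given whether counting used strand, fragments of these genes and of Aldh1l1 may not be separable.

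Aldh1l2, the mitochondrial enzyme, was the only ALDH1 gene called higher in KMF. It is ENSMUSG00000020256 on the minus strand of chromosome 10, from 83487450 to 83534140. ID8 replicates 1, 2 and 3 held 1.32, 1.87 and 1.13 FPKM and KMF replicates 1, 2 and 3 held 2.89, 3.37 and 2.77 FPKM. Every KMF library was above every ID8 library. The log2 fold change was 1.10 ± 0.21 (SE, adjusted p = 0.00417), a 2.15-fold higher level. The protein-coding gene D10Wsu102e overlaps it on the opposite strand, with the same limit as for Aldh1l1. The coding sequences of Aldh1l1 and Aldh1l2 are 72.34% identical and share no run longer than 22 bases, so that their fragments are told apart more readily than those of Aldh1a1 and Aldh1a7.

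**Figure D3:**
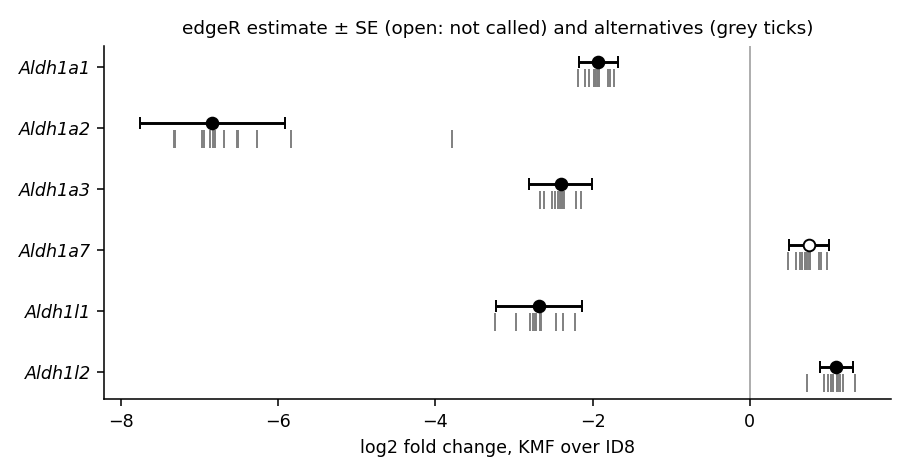
Log2 fold change of KMF over ID8 (horizontal axis) for each ALDH1 gene, with the edgeR estimate as a circle (open where not called), its standard error as a bar and the alternative settings as grey ticks. No tick of any gene crosses 0, and the lone tick of Aldh1a2 at -3.79 is the log2(FPKM + 1) scale.

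Because FPKM is per length, the levels of the genes can be compared within a library. In ID8, Aldh1a1 stood first at 362 ± 93.2 FPKM (SD, n = 3), followed by Aldh1a2 at 20.01 ± 13.7 and Aldh1a7 at 17.3 ± 4.75. The order of these followers depended on the library. Aldh1a2 was above Aldh1a7 in ID8 replicates 1 and 2 (28.01 against 13.3 and 27.8 against 16.04 FPKM) and below it in replicate 3 (4.22 against 22.5 FPKM). Aldh1l2 came next at 1.44 ± 0.383 FPKM, above Aldh1l1 at 0.592 ± 0.294 and Aldh1a3 at 0.587 ± 0.167, which could not be ordered. In KMF, Aldh1a1 was again first at 92.5 ± 27.7 FPKM, but Aldh1a7 came next at 28.3 ± 8.86 followed by Aldh1l2 at 3.01 ± 0.321. Aldh1a2 at 0.181 ± 0.117, Aldh1a3 at 0.105 ± 0.0389 and Aldh1l1 at 0.0914 ± 0.0555 FPKM followed, and these levels overlapped.

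The summed FPKM of the 6 genes was 321, 396 and 490.2 in ID8 replicates 1, 2 and 3 and 99.9, 167 and 106 in KMF replicates 1, 2 and 3. Means were 402 ± 85.0 for ID8 and 124 ± 36.9 for KMF (SD, n = 3), a 3.24-fold difference with no overlap between the lines. Aldh1a1 carried most of that difference. Without it the sums were 39.9 ± 9.93 in ID8 and 31.7 ± 9.21 in KMF, which differed by less than their spread. The makeup of the sum also differed. Aldh1a1 made up 89.5% ± 4.12 of it in ID8 and 74.5% ± 0.228 in KMF, and Aldh1a7 4.26% ± 0.292 and 22.7% ± 0.336. The share of Aldh1a2 was 5.54% ± 4.14 in ID8, with 0.86% in replicate 3, and 0.152% ± 0.118 in KMF, where it was 0.0882% without replicate 1. Aldh1l2 went from 0.372% ± 0.126 to 2.51% ± 0.444.

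**Figure D4:**
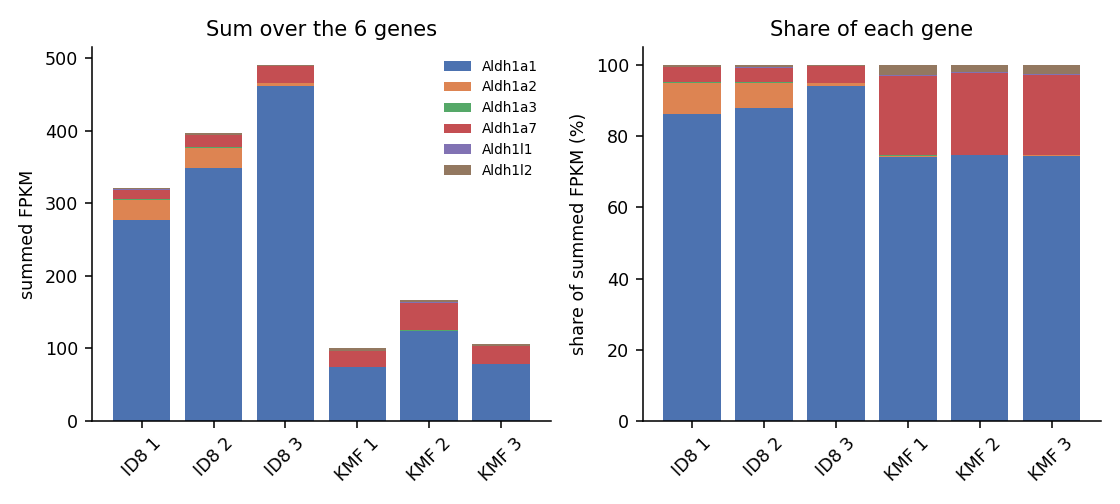
Summed FPKM of the 6 ALDH1 genes in each library (left, vertical axis in FPKM) and the share of each gene in that sum (right, vertical axis in percent), as stacked bars. The sums of the ID8 libraries lie between 321 and 490.2 FPKM and those of KMF between 99.9 and 167, and the Aldh1a7 share is 22.4% to 23.1% in KMF against 4.05% to 4.59% in ID8.

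Among aldehyde dehydrogenases outside ALDH1A and ALDH1L, the table held 12 of 15 genes and all were called, 8 lower and 4 higher in KMF. Over all genes fitted 92.9% were called, with 47.5% lower and 45.4% higher in KMF. The log2 fold changes of the 12 genes had a median of -0.89. Aldh1b1, a mitochondrial enzyme that can also oxidize retinal, was at 18.1 ± 9.90 FPKM in ID8 and 2.96 ± 0.668 FPKM in KMF (SD, n = 3), and its log2 fold change was -2.56 ± 0.37 (SE). In contrast to Aldh1a2 it was highest in ID8 replicate 3, at 29.5 FPKM against 12.6 and 12.1. The genes Aldh3b1 (-1.40 ± 0.08) and Aldh4a1 (-1.19 ± 0.12) were also lower, and Aldh3b2 (2.31 ± 0.58, SE) was higher, though not called without KMF replicate 2 (adjusted p = 0.0519). Aldh2, which clears acetaldehyde in mitochondria, was the most abundant of the 12 at 473 to 594 FPKM in ID8 and 363 to 387 FPKM in KMF (-0.46 ± 0.10, SE). It exceeded Aldh1a1 per length in every library of both lines. Aldh3a1, a cytosolic enzyme of aromatic aldehydes, was at 80.8 to 136 FPKM in ID8, under Aldh1a1 in each library, and at 175 to 252 FPKM in KMF, above Aldh1a1 in each library (1.00 ± 0.20, SE). The transcripts of the 12 genes summed to 755 to 960 FPKM in ID8 and 650.2 to 748 FPKM in KMF.

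The retinoid genes around the ALDH1A enzymes were then examined in the order of the pathway. Of 21 genes for retinoid supply and binding 9 were listed, and 5 were lower, 3 were higher and 1 was not called, with a median log2 fold change of -0.43. Their shares are near those of all genes fitted, of which 47.5% were lower and 45.4% higher. Stra6, the membrane receptor that takes up retinol, fell by 3.15 ± 0.64 (SE) on the log2 scale, from a mean of 0.789 FPKM in ID8. Rbp7, a cytosolic retinol-binding protein, went the other way. It had 1 or 2 counts in each ID8 library and 188, 227 and 409 in KMF replicates 1, 2 and 3, where it reached 12.9, 15.9 and 19.9 FPKM. Per library total this is a ratio of 164 between the lines, with a 95% exact interval of 69.8 to 505 that covers counting error only. Its fitted log2 fold change was 7.25 ± 0.34 (SE), a value that depends on how such low ID8 counts are handled. Rbp2 was higher as well (1.31 ± 0.24, SE).

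Dhrs3, which reduces retinal back to retinol and is itself induced by retinoic acid, was at 5.11, 7.43 and 8.19 FPKM in ID8 replicates 1, 2 and 3 and at 0.925, 1.41 and 0.593 FPKM in KMF replicates 1, 2 and 3. No KMF library reached an ID8 library, and the log2 fold change was -2.80 ± 0.33 (SE, adjusted p = 0.00045). Fabp5, a lipid carrier that can deliver retinoic acid to the nucleus, fell from 38.3 ± 4.37 to 1.83 ± 0.705 FPKM (SD, n = 3), which is -4.33 ± 0.25 (SE) on the log2 scale. Dhrs9, a retinol dehydrogenase, was higher in KMF (1.61 ± 0.41, SE), but was not called without ID8 replicate 1 or KMF replicate 2 (highest adjusted p = 0.0538). Rdh10, Crabp1, Crabp2 and Lrat were not analysed here.

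Of 6 retinoid receptor genes 3 were listed. Rarb, a receptor gene that retinoic acid itself induces, was at 1.30, 0.983 and 1.82 FPKM in ID8 replicates 1, 2 and 3 and at 0.0559, 0.0571 and 0.189 FPKM in KMF replicates 1, 2 and 3. Its log2 fold change was -3.62 ± 0.48 (SE, adjusted p = 0.000787), and KMF replicates 1 and 2 held 4 counts each. Whether retinoic acid signaling differed between the lines was not tested. The response element through which retinoic acid induces Rarb lies just before its start, and the 80 bases before the RefSeq start (GRCm38.p6) are shown for that reason. Capitals mark a pair of half-sites, with the 5 bases between them.
Rarb (chr14:16575477-16575556, minus strand): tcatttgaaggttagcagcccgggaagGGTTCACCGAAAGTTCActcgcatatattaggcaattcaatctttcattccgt
The half-sites searched were AGGTCA, with the forms AGTTCA, then GGTTCA, then GGGTCA, any 2 of them in the same direction and 5 bases apart on either strand, and 32 of 32851 windows, or 0.0974%, hold one. For each gene named here, the window whose start lies nearest to the deposited 5' end was used, out of 2 for Aldh1a1, 3 for Dhrs3 and 4 for Stra6. None of the windows used for Aldh1a1, Aldh1a2, Aldh1a7, Aldh1l1, Dhrs3 and Stra6 holds such a pair. This says only that these letters are not in those windows, and the other windows of these genes were not examined singly. Rxra, the shared partner of these receptors, rose by 0.64 ± 0.09 (SE) on the log2 scale. Rarg had a log2 fold change of 0.32 ± 0.11 (SE) and was not called (adjusted p = 0.0555).

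Among 13 genes for retinoic acid clearance and known targets 3 were listed. The homeobox gene Meis1 fell by 0.63 ± 0.11 (SE) on the log2 scale. The nuclear receptor corepressor gene Nrip1 had a log2 fold change of 0.33 ± 0.11 (SE) and an adjusted p of 0.0405, and it was not called in 11 of 15 alternatives, among them DESeq2, both limma fits, the replicate block and the fits without ID8 replicate 1 or 2 or KMF replicate 1 or 2 (adjusted p from 0.022 to 0.196 over all 15). The Cyp26 genes, whose products degrade retinoic acid, were not analysed here.

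For the folate arm, 14 of 25 enzyme genes were listed, of which 8 were higher, 5 were lower and 1 was not called, with a median log2 fold change of 0.44. The share called equals the 92.9% over all genes fitted, of which 45.4% were higher. Shmt2, which passes a carbon from serine to folate, was at 28.0, 28.7 and 25.7 FPKM in ID8 replicates 1, 2 and 3 and at 60.8, 66.2 and 71.2 FPKM in KMF replicates 1, 2 and 3 (1.30 ± 0.09, SE). Mthfd2, the next enzyme in the chain, rose by 0.84 ± 0.14 (SE) and Mthfd1l, which releases formate, by 0.75 ± 0.14 (SE) on the log2 scale. The cytosolic counterpart of Shmt2, Shmt1, fell by 0.90 ± 0.14 (SE), as the cytosolic Aldh1l1 did, whereas Mthfd1, which serves the cytosol, was not called. Tyms, the thymidylate synthase gene, was higher in KMF (1.07 ± 0.12, SE). Ggh, which trims the glutamate tail of folates, was lower (-2.81 ± 0.23, SE).

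Of 7 folate transport genes 5 were listed, 4 of them lower and 1 not called, beside 47.5% lower and 92.9% called over all genes fitted. Slc46a1, the proton-coupled folate transporter, was at 34.5, 34.7 and 39.9 FPKM in ID8 replicates 1, 2 and 3 and at 8.90, 7.50 and 8.78 FPKM in KMF replicates 1, 2 and 3 (-2.07 ± 0.10, SE). Log2 fold changes were -0.90 ± 0.20 for the folate receptor gene Folr1, -1.43 ± 0.14 for the exporter Abcg2 and -0.47 ± 0.09 (SE) for the exporter Abcc1. The reduced folate carrier Slc19a1 was not analysed here. Aldh1l2, Shmt2 and Mthfd2 are known targets of the stress factor ATF4, which also drives serine synthesis. Of 20 genes on a list of serine synthesis and ATF4 targets 12 were listed, with 9 called higher and 3 called lower, beside 45.4% higher and 47.5% lower over all genes fitted, and the median of their log2 fold changes was 0.69. Psat1 (1.06 ± 0.13) and Phgdh (0.95 ± 0.15), enzymes of serine synthesis, and Atf4 itself (0.48 ± 0.10, SE) were higher. Slc7a5, an amino acid transporter, fell by 1.02 ± 0.11 and Slc7a1 rose by 1.01 ± 0.13 (SE) on the log2 scale.

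**Figure D5:**
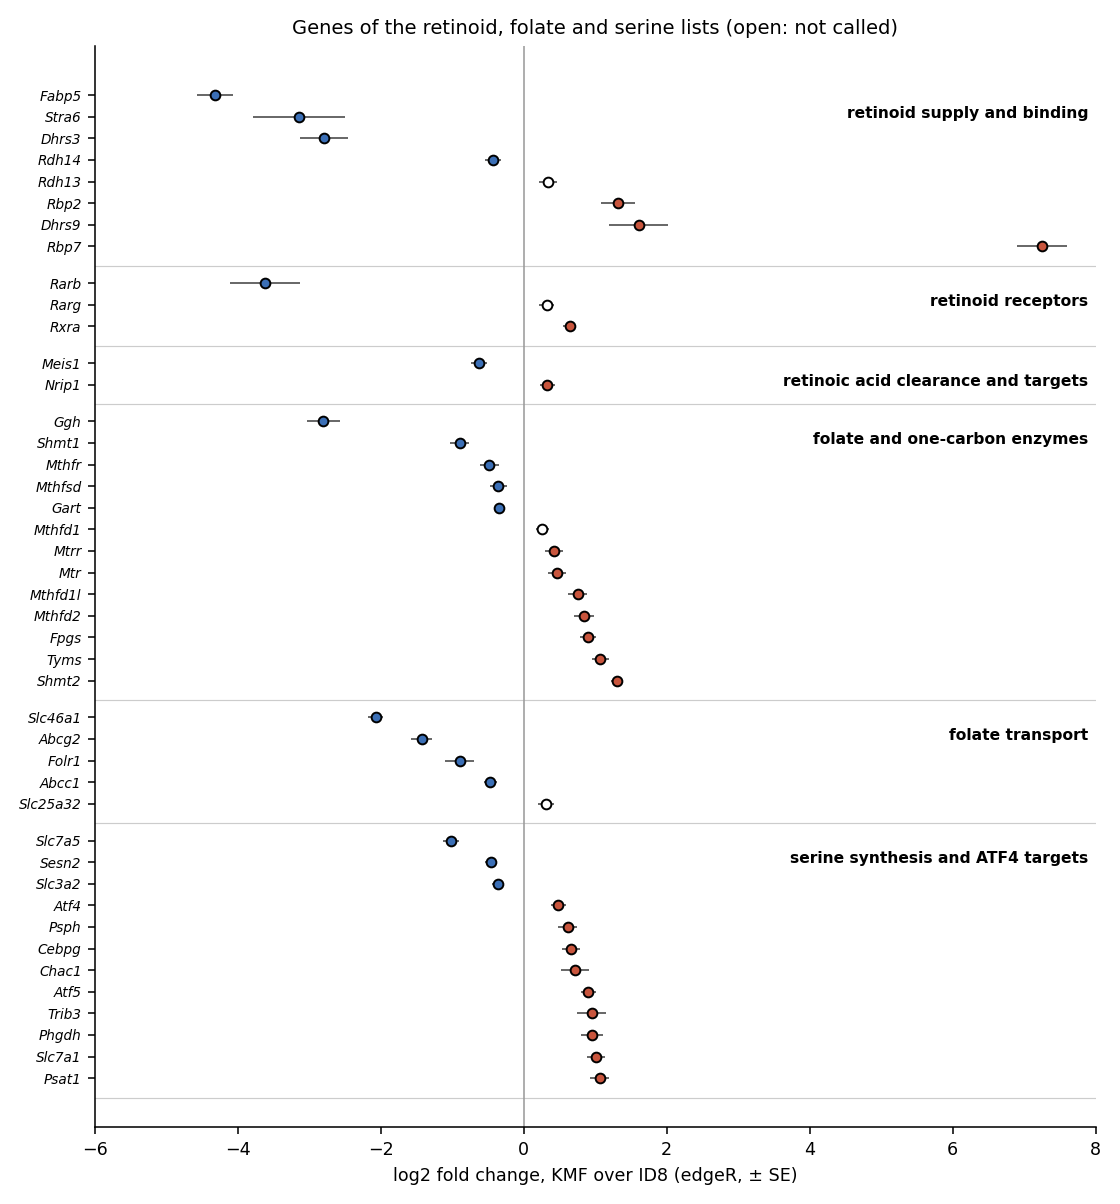
Log2 fold change of KMF over ID8 (horizontal axis) for genes of the retinoid, folate and serine lists that are reported here, with standard errors as bars, red for called higher, blue for called lower and open circles for not called. Among the genes shown, Rbp7 at 7.25 and Fabp5 at -4.33 are the extremes, and no gene of folate transport was called higher.

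Genes that followed each ALDH1 gene most closely over the 6 libraries were sought by the Pearson correlation of log2 CPM, among listed genes with a mean above 1 FPKM in a line. These correlations are a description. The points form a cluster per line, the table holds genes chosen because the lines differed, and the libraries are shared. Nearest to Aldh1a1 were Gm11642, Cldn2 and Yif1a (r = 0.999 for each), and Gm11642 had at most 22 counts in a library. For Aldh1a2 they were Serping1 (r = 0.999), Enpep and Fam20a (r = 0.996 each). Serping1 was measured at 4.30, 4.57 and 1.32 FPKM in ID8 replicates 1, 2 and 3, which is again lowest in replicate 3. Those of Aldh1a3 were Glce, Lasp1 and Atp5g1, and those of Aldh1l1 were Cask, Lpgat1 and Hexa, with r from 0.994 to 0.997. Aldh1a7 had no companion above Eif1b (r = 0.975). Nearest to Aldh1l2 were Serpinb2, Ffar4 (r = 0.997 each) and Il18rap (r = 0.996), and the fatty acid receptor gene Ffar4 was measured at 13.1 to 29.5 FPKM in ID8 and 66.0 to 87.5 FPKM in KMF.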

How the data were processed

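Tumorsphere RNA of 3 samples per line was compared (poly-A selection, NEBNext Ultra, paired reads). The study's methods name TopHat2 for mapping, whereas the submitters' processing notes name STAR 2.5, CASAVA 1.8, DESeq2 and mm10. The counting tool, the annotation release and the use of strand are not given in the sources used here. The authors deposited raw fragment counts per gene, which are not normalized, FPKM, which the authors scaled to gene length and to fragments on genes, and a mean normalized signal per line. The deposited log2 fold changes and p-values are the authors' own comparison. The fold changes were not used. The deposited p-values, the largest adjusted one being 0.0499, show that the 7320 listed genes are those called among 17359 tested (42.2%). Other genes were not analysed here.

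Library totals were recovered from count, FPKM and length. The main test was edgeR 4.0.16 on the counts, under R 4.3.3 (TMM scaling on the listed genes, filterByExpr, glmQLFit and glmQLFTest, two-sided), and p-values were adjusted over 17359 genes. A count of 3 corresponds to 0.0903 to 0.13 CPM. On simulated data of 7320 genes with 200 changed by 1 log2 unit, 92% of the changed genes and 13 others were called. Libraries of the same line differed by more than sampling noise (lowest chi-square per degree of freedom 19.3). DESeq2 1.42.0, limma 3.58.1, other scalings, filters, a replicate block and the removal of single libraries were tried as alternatives. Sequences came from RefSeq windows and from GENCODE M21 transcripts (Python 3.11.15, Biopython 1.88).

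The ALDH1 genes and all gene lists were chosen with earlier results of these data known. Named genes are the ALDH1 genes, from each list the called genes with a mean above 1 FPKM in a line, up to the 4 with the largest change, a fixed set of retinoid, folate and marker genes, and the 3 genes nearest to each ALDH1 gene. Further list members were named after their values had been seen (Msln, Podxl, Aldh2, Aldh3a1, Rbp2, Dhrs9, Shmt1, Mthfd1 and Kdr). A few genes that the rule selects are not reported here.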

Additional observations from a re-analysis of the deposited data

How the results depend on the processing

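Over up to 15 alternatives no ALDH1 gene changed direction and no call was lost where a gene was tested. Aldh1a7 alone changed sides of the threshold, being called with the authors' size factors (log2 fold change 0.76, an alternative chosen after seeing the data), without a filter on low counts (0.76), with DESeq2 (0.70) and, among the fits without single libraries (0.49 to 0.98), without ID8 replicate 3 or KMF replicate 1. In each of these 2 ALDH1 genes were called higher (1 to 2 over the fits without single libraries, with 5 to 6 called in all). The cause was not tested. With the replicate number as a block, Aldh1a7 was called as well (log2 fold change 0.74, adjusted p = 0.0415), so that 2 genes were called higher. The numbers do not pair the samples, since deviations of same-numbered libraries correlated at 0.0737, -0.0876 and 0.108, and the block lowered the calls over all genes from 6470 to 5720. A minimum of 10 counts in every library left Aldh1a1, Aldh1a7 and Aldh1l2 to be tested, of which 2 were called, 1 of them lower. Either limma fit, restricted to means above 1 FPKM, called 3 genes, 2 of them lower, and did not test Aldh1a3 and Aldh1l1. The median log2 fold change of the other aldehyde dehydrogenases was -1.0 with upper quartile scaling, which shifted the median of all genes by -0.11, -0.97 under a minimum of 10 counts and -0.75 with limma on log2(FPKM + 1). At least 10 counts in every library left 1 called retinoid receptor and 1 called gene of retinoic acid clearance and targets, whose list median became -0.19, since fewer genes of these lists were then tested. Of the latter list 2 of 3 genes were called in most other alternatives, Nrip1 being lost. Depth limits Aldh1a3 and Aldh1l1 in both lines and Aldh1a2 in KMF, where libraries held 16 counts or fewer.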
